A study of Homo sapiens with 6 samples.

Results

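The genes described here are the mitotic cyclins CCNA2, CCNB1 and CCNB2, the kinases CDK1, PLK1, AURKA, AURKB, BUB1 and BUB1B, and CDC20, the activator of the anaphase-promoting complex. They were taken by gene name, and all 10 were found among the 50868 genes of the deposited expression table. RNA-Seq of polyA RNA had been performed on HCT116, an established human colorectal cancer cell line with intact p53. The 3 control samples (pcCon) received empty pcDNA3.1(+), and the 3 overexpression samples (pcYY2) received the same plasmid carrying YY2, a zinc finger transcription factor closely related to YY1. All 6 samples were therefore transfected HCT116 cells, and the comparison asked how raised YY2 changed the transcriptome. The labels do not say that the samples came from separate cultures, so p-values measure only the spread between these samples. The overexpression was transient and in 1 cell line, and no sorting for transfected cells is stated. In bulk samples, more cells in a given cell cycle stage and more RNA per cell cannot be told apart.

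As background, entry into mitosis is driven by CDK1, a kinase that is active only when bound to a cyclin. Cyclin A2 serves in S phase and G2, and cyclins B1 and B2 carry the cell into mitosis. PLK1 and the Aurora kinases build the spindle and prepare chromosomes for division, BUB1 and BUBR1 (encoded by BUB1B) guard chromosome attachment, and CDC20 then directs the anaphase-promoting complex, APC/C, to destroy cyclin B and securin. Transcripts of these genes accumulate together in G2 and mitosis. Much of this timing is assigned to CHR elements, which the MuvB complex contacts, and to CCAAT boxes, which NF-Y binds, close to the transcription start.

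The promoters of 6 members are shown because these genes are known for such elements and are compared below as a group. Each stretch spans bases -130 to -21 relative to the RefSeq start on GRCh38.p14 (where -1 is the base before the start). It is written 5′ to 3′ on the strand of the gene. Capitals mark the letters TTTGAA, a form of the CHR element, and CCAAT boxes, with a box on the opposite strand reading ATTGG. Forms of the CHR other than TTTGAA and TTCGAA were not searched, so a stretch without TTTGAA may still hold a CHR element.
CCNB1 (chr5:69167020-69167129, plus strand): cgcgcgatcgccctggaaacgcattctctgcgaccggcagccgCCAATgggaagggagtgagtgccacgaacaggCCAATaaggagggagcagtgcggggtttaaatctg
CCNB2 (chr15:59105016-59105125, plus strand): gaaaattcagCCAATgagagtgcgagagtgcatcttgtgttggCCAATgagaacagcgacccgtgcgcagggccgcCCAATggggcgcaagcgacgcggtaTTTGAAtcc
CCNA2 (chr4:121823904-121824013, minus strand): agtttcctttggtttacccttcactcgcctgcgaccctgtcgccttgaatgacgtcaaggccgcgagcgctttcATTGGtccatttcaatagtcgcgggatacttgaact
PLK1 (chr16:23678759-23678868, plus strand): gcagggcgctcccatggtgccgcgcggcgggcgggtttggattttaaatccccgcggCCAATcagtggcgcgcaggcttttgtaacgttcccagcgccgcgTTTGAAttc
BUB1 (chr2:110678084-110678193, minus strand): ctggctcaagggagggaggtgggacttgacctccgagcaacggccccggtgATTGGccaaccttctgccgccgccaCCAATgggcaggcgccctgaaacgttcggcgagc
CDC20 (chr1:43358851-43358960, plus strand): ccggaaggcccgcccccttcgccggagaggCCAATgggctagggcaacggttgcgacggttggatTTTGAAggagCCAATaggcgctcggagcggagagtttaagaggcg

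Over the whole 250 bases before the start, searched on both strands, CCAAT was found in 8 of the 9 members with a RefSeq promoter (all but BUB1B), against 32% of 35116 promoter windows. TTTGAA was found in 5 (CCNB2, CDK1, PLK1, BUB1B and CDC20), against 13.3% of windows. In PLK1 and CCNB2 it began at the same place, 29 bases before the start. Neighbouring CCAAT boxes began 32 bases apart in CCNB1 and in CDK1, 124, 33 and again 33 bases apart in CCNB2, 25 apart in BUB1 and 45 apart in CDC20. The letters GCCATNTT, part of the consensus reported for both YY1 and YY2, were found in 0 of the 9 against 3.86% of windows. TTCGAA was found in 0 against 1.19%. With shares this low, 0 of 9 says little about either motif. A member counted where any of its windows matched, and the 9 members had 11 windows, whereas the shares are over single windows. These matches describe letters in 1 window per start and draw nothing about binding. AURKA was not matched.

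The total counts per sample ranged from 15158360 to 29572882, and the deepest library was pcYY2 sample 2. YY2 itself rose from 2.16 ± 0.397 FPKM in pcCon (SD, n = 3) to 11.2 ± 0.333 in pcYY2 (log2 fold change 2.39, SE 0.137, edgeR adjusted p = 0.00107), while YY1 gave 13.8 ± 0.998 and 15.4 ± 1.58 FPKM (adjusted p = 0.260). FPKM are counts scaled to gene length and library total. Of 7 colon epithelial markers, 5 were expressed enough to be tested and 2 rose, the keratins KRT8 (log2 fold change 0.67, adjusted p = 0.0117) and KRT19 (0.60, adjusted p = 0.00209). The summed FPKM of the 7 was 297 to 309 in pcCon and 389 to 424 in pcYY2, EPCAM was high in both groups (70.4 and 74.9 FPKM), and CDX1 was listed at 0 in every sample. Of 8 markers of other cell types, 1 was tested and not called (COL1A1), and their summed FPKM was 2.39 to 2.83 in pcCon and 2.43 to 3.49 in pcYY2, with COL1A2 at 0. The part of the epithelial markers in the results below was not tested.

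All 10 mitotic genes were measured at higher levels in pcYY2. In each of them the lowest pcYY2 sample lay above the highest pcCon sample, which held in that direction for 15.9% of the 12015 genes tested. With edgeR's quasi-likelihood test, adjusted over those genes, 9 of the 10 rose at an adjusted p of 0.05 or less, where 4.52% of all tested genes were called higher. None of the 10 fell, where 4.85% of all tested genes were called lower. Fitted fold changes lay between 1.20 and 1.41, and the median log2 fold change of the members was 0.38 beside 0.00197 over all genes tested. Read counts behind each value ran from 843 to 12123, so no member was near the floor of 3 counts. For a single gene, 3 samples against 3 cannot give an exact two-sided permutation p below 0.1, and each member reached 0.1.

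**Figure D1:**
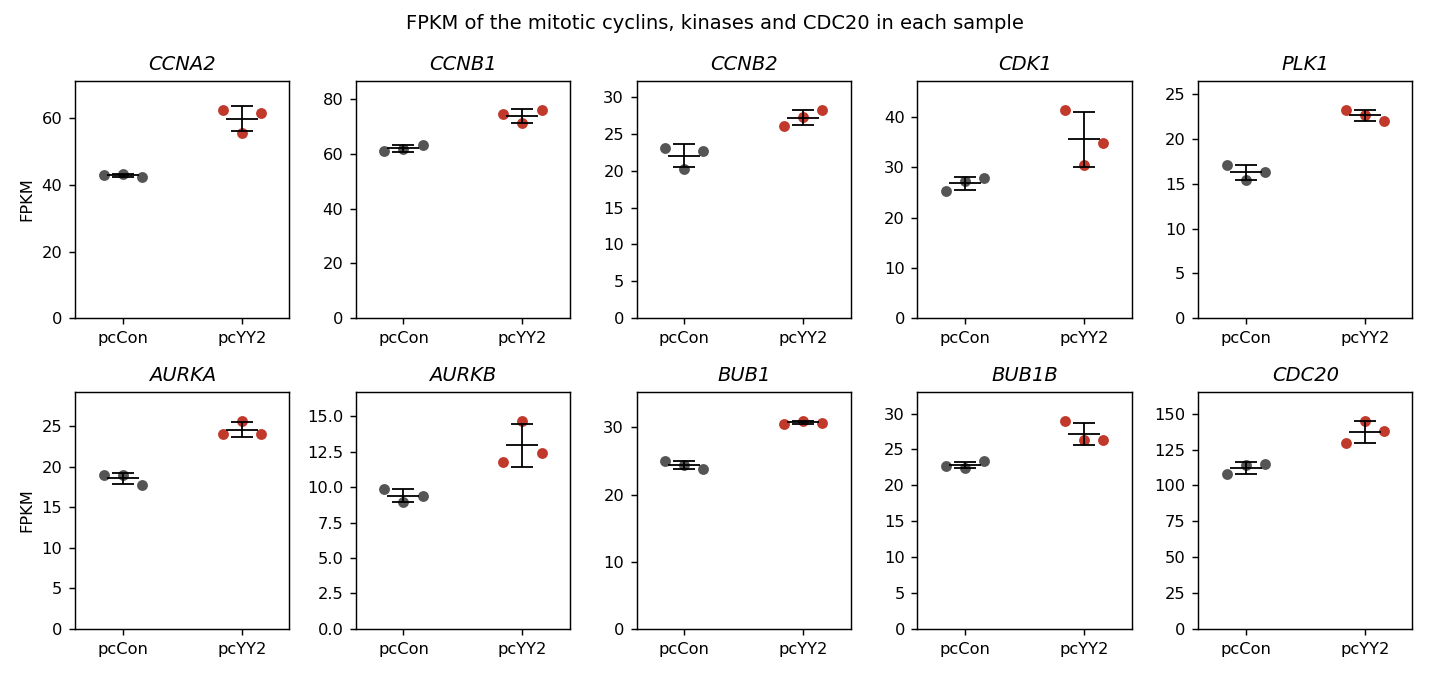
FPKM of each of the 10 genes in the 3 pcCon samples (grey) and the 3 pcYY2 samples (red), in the order of replicate numbers, with a vertical axis from 0 for each gene; horizontal lines are the mean and 1 SD. The groups did not overlap for any of the genes, and CDK1 had the widest pcYY2 spread for its level (35.6 ± 5.45 FPKM).

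Among the cyclins, CCNA2 (ENSG00000145386, GRCh38 chr4:121816444-121823933), cyclin A2, gave 43.1, 43.2 and 42.3 FPKM in the pcCon samples and 62.5, 55.7 and 61.6 in the pcYY2 samples. The pcCon samples lay within 1 FPKM of each other, and even the lowest pcYY2 sample, sample 2, was well above them. The rise was the largest of the 10 members by fitted change (log2 fold change 0.50, SE 0.0528, 95% interval 0.37 to 0.62, edgeR adjusted p = 0.00553). CCNB1 (ENSG00000134057, chr5:69167010-69178245), the major mitotic B-type cyclin, gave 61.0, 61.7 and 63.3 FPKM in pcCon and 74.7, 71.1 and 76.0 in pcYY2. Sample 2 was again the lowest of the pcYY2 samples. Its log2 fold change was 0.27 (SE 0.0425, interval 0.17 to 0.37, adjusted p = 0.0159). CCNB2 (ENSG00000157456, chr15:59105078-59125045), a B-type cyclin associated with the Golgi, gave 23.1, 20.3 and 22.7 FPKM in pcCon and 26.1, 27.3 and 28.2 in pcYY2. Here pcCon sample 2 was the lowest of its group. The log2 fold change was 0.32 (SE 0.0677, interval 0.16 to 0.48, adjusted p = 0.0352).

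CDK1 (ENSG00000170312, chr10:60778331-60794852), the partner kinase of these cyclins, gave 25.3, 27.3 and 27.9 FPKM in pcCon and 41.4, 30.6 and 34.9 in pcYY2. The groups did not overlap, but the pcYY2 samples were widely spread, with sample 1 highest and sample 2 lowest. Its log2 fold change of 0.42 was close to that of AURKA, yet the larger error (SE 0.106, interval 0.17 to 0.67) left it just outside the threshold (edgeR adjusted p = 0.0528). Without pcYY2 sample 2, its lowest, it was called (adjusted p = 0.0373). Leaving out any of the other 5 samples gave an adjusted p of 0.0703 to 0.146, and without pcYY2 sample 1 the log2 fold change was 0.30. The summed FPKM of the 3 cyclins was 127 ± 1.58 in pcCon and 161 ± 6.17 in pcYY2. Relative to CDK1 the cyclin sum overlapped between groups (ratio 4.74 ± 0.251 in pcCon and 4.58 ± 0.569 in pcYY2, exact permutation p = 0.9). Within the cyclins the balance differed. The CCNB1 to CCNA2 ratio was 1.42, 1.43 and 1.50 in the pcCon samples and 1.20, 1.28 and 1.23 in the pcYY2 samples, without overlap. This difference had the smallest exact permutation p that 3 against 3 allow (0.1; 0.175 after Benjamini-Hochberg adjustment over the 7 sums and ratios computed), so it cannot pass 0.05.

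PLK1 (ENSG00000166851, chr16:23677656-23690367), the Polo-like kinase of centrosome maturation and mitotic entry, gave 17.1, 15.4 and 16.3 FPKM in pcCon and 23.2, 22.6 and 22.01 in pcYY2. Both groups were tight and clearly apart. The log2 fold change was 0.49 (SE 0.0545, interval 0.36 to 0.62, edgeR adjusted p = 0.00587). AURKA (ENSG00000087586, chr20:56369389-56392337), the Aurora kinase of spindle poles, gave 19.0, 19.0 and 17.8 FPKM in pcCon and 24.0, 25.6 and 24.0 in pcYY2. Spread within each group was small beside the gap between them. Its log2 fold change was 0.42 (SE 0.0549, interval 0.29 to 0.55, adjusted p = 0.00935). AURKB (ENSG00000178999, chr17:8204733-8210600), the Aurora kinase of the chromosomal passenger complex at centromeres, gave 9.89, 8.98 and 9.36 FPKM in pcCon and 11.8, 14.7 and 12.4 in pcYY2. Sample 2, the deepest library, was the highest pcYY2 sample for AURKB, whereas it was the lowest for CDK1 and CCNA2. The log2 fold change was 0.48 (SE 0.0944, interval 0.25 to 0.70, adjusted p = 0.0290), and the AURKA to AURKB ratio overlapped between groups (1.98 ± 0.118 and 1.91 ± 0.147, exact permutation p = 0.6, adjusted 0.817).

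BUB1 (ENSG00000169679, chr2:110637698-110678114), the checkpoint kinase that marks kinetochores, gave 25.0, 24.5 and 23.8 FPKM in pcCon and 30.6, 31.0 and 30.7 in pcYY2. Its pcYY2 samples were the most alike of any member (30.7 ± 0.208 FPKM). The log2 fold change was 0.35 (SE 0.0403, interval 0.25 to 0.44, edgeR adjusted p = 0.00663). BUB1B (ENSG00000156970, chr15:40161023-40221136), which encodes BUBR1, a subunit of the mitotic checkpoint complex, gave 22.7, 22.4 and 23.3 FPKM in pcCon and 29.0, 26.4 and 26.3 in pcYY2. Sample 1 stood above the other pcYY2 samples. Its log2 fold change was 0.27 (SE 0.0532, interval 0.14 to 0.39, adjusted p = 0.0295). CDC20 (ENSG00000117399, chr1:43358955-43363203), which the checkpoint complex holds inactive until chromosomes are attached, gave 108, 114 and 115 FPKM in pcCon and 130, 145.1 and 138 in pcYY2. The pcCon samples again lay closer together than the pcYY2 samples. The log2 fold change was 0.31 (SE 0.0561, interval 0.17 to 0.44, adjusted p = 0.0241), and the CDC20 to BUB1B ratio overlapped between groups (4.92 ± 0.184 and 5.07 ± 0.538, exact permutation p = 0.7, adjusted 0.817).

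**Figure D2:**
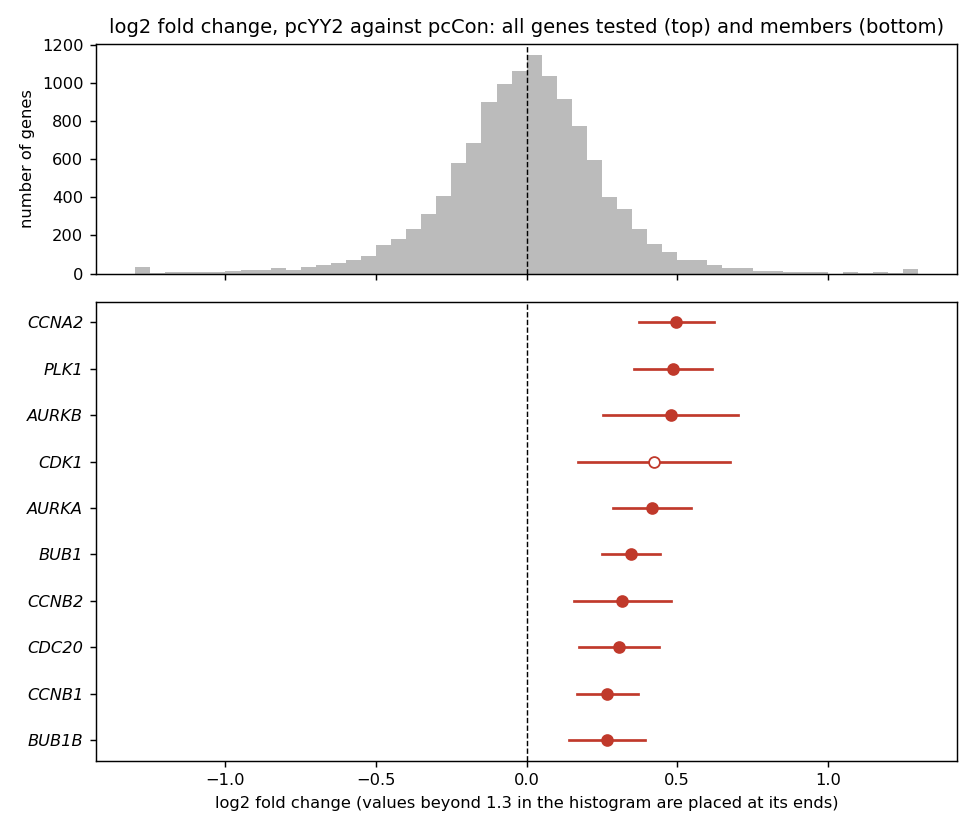
Top, histogram of log2 fold changes (pcYY2 against pcCon) over the 12015 genes tested; bottom, log2 fold change of each mitotic gene with its 95% interval from the edgeR fit, filled where the adjusted p was 0.05 or less and open for CDK1 (0.0528). All genes together centred near 0 (median 0.00197), and the mitotic genes lay between 0.27 and 0.50.

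Taken by sample, the 10 genes held 0.174%, 0.174% and 0.176% of all counted reads in pcCon and 0.227%, 0.220% and 0.223% in pcYY2. The share was 1.28 times as high in pcYY2, and it varied little within a group although single genes varied more. No pcYY2 sample led throughout: sample 1 was the highest of its group for 4 of the genes, sample 2 for 4 and sample 3 for 2. The order of levels by FPKM was the same in both groups, from CDC20 through CCNB1, CCNA2, CDK1, BUB1, BUB1B, CCNB2, AURKA and PLK1 to AURKB. The sample ranges of BUB1B and CCNB2 overlapped in both groups and those of CDK1 and BUB1 in pcYY2, so these neighbours did not differ beyond their spread. This order depends on the gene lengths behind the FPKM, 2826 to 8994 bases, which cover all annotated exons and can exceed the transcript the cells use.

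How many members passed depended on the libraries included. Leaving out pcCon sample 1, pcCon sample 2, pcCon sample 3 or pcYY2 sample 3 left 4 members called in each case, CCNA2, PLK1, AURKA and BUB1, while 138 to 171 of all genes were then called higher. Without pcYY2 sample 1 there were 8 members called and without pcYY2 sample 2 there were 7. In each of the 14 alternative fits all 10 members had a log2 fold change above 0, and CCNA2 and PLK1 were called in all 14.

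**Figure D3:**
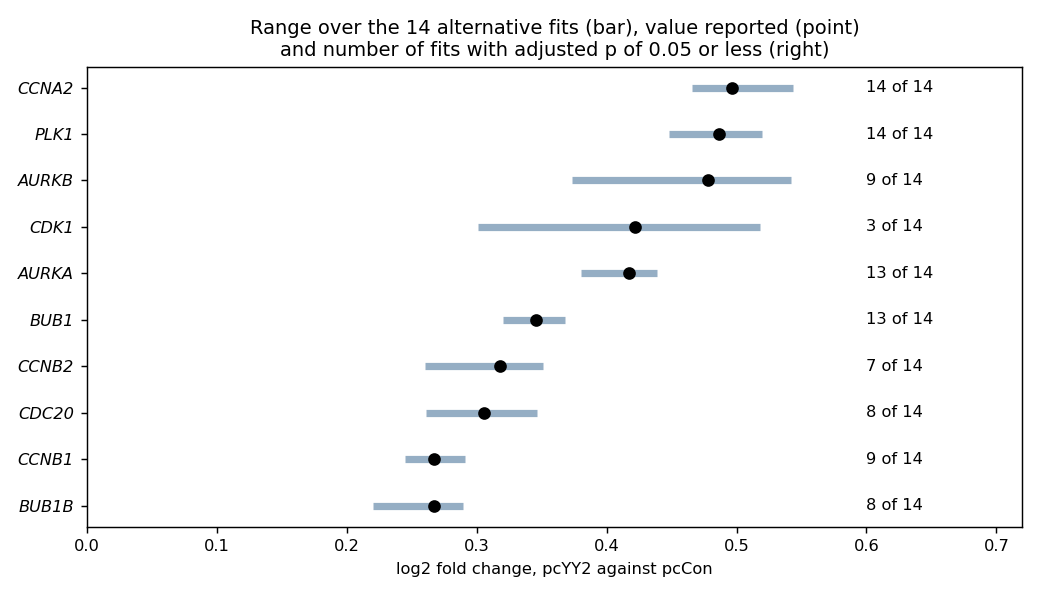
Log2 fold change of each mitotic gene (horizontal axis, pcYY2 against pcCon): the point is the reported value, the bar its range over the 14 alternative fits, and the text the number of those fits with an adjusted p of 0.05 or less. CCNA2 and PLK1 were called in 14 of 14 and CDK1 in 3, and every range lay above 0.

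Some members share sequence or position with other genes, and whether the counting used the strand is not given in the sources used here. Reads of CCNA2 where it overlaps the antisense gene EXOSC9 therefore cannot be assigned with certainty, and EXOSC9 itself gave -0.02 on the log2 scale (adjusted p = 0.833). PAK6 and BUB1B overlap in the GENCODE annotation but not at the positions of the deposited table, and PAK6 gave 0.09 on the same scale (adjusted p = 0.897). ERN2, which overlaps PLK1, had 0 to 5 reads in each sample. The read-through gene BUB1B-PAK6 had 73 reads in pcCon sample 3 and 3 to 5 elsewhere. Adding its reads to BUB1B gave a log2 fold change of 0.25 (edgeR adjusted p = 0.0389). Adding the pseudogene CDC20P1 to CDC20 gave 0.30 (adjusted p = 0.0245), and adding AURKAPS1 to AURKA gave 0.41 (adjusted p = 0.00995). None of these sums changed a call.

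The wider pathway moved less evenly. Of 87 genes in 6 lists of partners, targets and regulators, 82 were tested, 15 rose and 2 fell. Their median log2 fold change was 0.08. As a background for these counts and for those of each list below, 4.52% of the 12015 genes were called higher and 4.85% lower. Without pcCon sample 1, 2 or 3 the number that rose was 7, 8 and 6, and without pcYY2 sample 3 it was 9. Without pcCon sample 1 or 2 the number that fell was 1.

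Among the 15 genes of the switch that turns CDK1 on and off, all tested, 3 rose and none fell (median log2 fold change 0.14). Leaving out pcCon sample 1, 2 or 3 left 0 called higher, and leaving out pcYY2 sample 1, 2 or 3 left 2, 1 and 1. Without pcYY2 sample 3, 1 gene of this list was called lower, and DESeq2 called 4 higher and 1 lower. CKS2, a small CDK-binding subunit, rose from 149 ± 6.20 to 212 ± 28.4 FPKM (log2 fold change 0.52, SE 0.0967, edgeR adjusted p = 0.0245). CDC25C, a phosphatase that removes the inhibitory phosphates of CDK1, rose from 3.19 ± 0.219 to 4.33 ± 0.221 FPKM (0.46, SE 0.0881, adjusted p = 0.0272). PPP2R2D, a regulatory subunit of the phosphatase that opposes CDK1, rose from 1.66 ± 0.0460 to 2.08 ± 0.0890 FPKM (0.34, SE 0.0695, adjusted p = 0.0316), but was called in 4 of the 14 alternative fits and in none of those that left out a sample. WEE1, which places an inhibitory phosphate, gave 5.78, 7.86 and 6.43 FPKM in pcCon and 8.65, 6.50 and 8.77 in pcYY2. Its groups overlapped (edgeR adjusted p = 0.290). PKMYT1, another such kinase, gave 2.98 ± 0.546 and 3.98 ± 0.295 FPKM without overlap but was not called (0.43, adjusted p = 0.0950). CDC25A gave 14.6, 15.0 and 14.5 FPKM in pcCon and 9.33, 7.12 and 13.6 in pcYY2, lower in each pcYY2 sample but widely spread (adjusted p = 0.143). WEE1, PKMYT1 and CDC25A were chosen after their values were seen.

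Of the 17 partners of the other mitotic kinases, all tested, 4 rose and 1 fell (median log2 fold change 0.17). Without pcCon sample 1 or pcYY2 sample 3, 2 rose and 0 fell, and without pcCon sample 2, 3 rose and 0 fell. CDCA8, the borealin subunit that works with Aurora B, rose from 26.7 ± 0.639 to 37.6 ± 1.28 FPKM (0.51, SE 0.050, edgeR adjusted p = 0.00428). TPX2, the spindle activator of Aurora A, rose from 140 ± 6.32 to 169 ± 3.79 FPKM (0.28, SE 0.0440, adjusted p = 0.0159). NEK2, a centrosome-splitting kinase, rose from 17.5 ± 0.888 to 23.5 ± 0.910 FPKM (0.43, adjusted p = 0.0111), and BUB3, the partner of BUB1 and BUBR1, from 34.6 ± 0.925 to 40.5 ± 0.199 FPKM (0.24, adjusted p = 0.0149). NEK6, a kinase of the same family as NEK2 and named after its value was seen, fell from 6.82 ± 0.411 to 4.79 ± 0.389 FPKM (log2 fold change -0.50, SE 0.0859, adjusted p = 0.0209).

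CDC20 acts through the exit machinery. Of 20 genes for APC/C subunits, its ubiquitin enzymes and its targets, all tested, 6 rose and none fell (median log2 fold change 0.11). Leaving out pcCon sample 3 left 1, leaving out pcYY2 sample 1 left 4, and leaving out any other sample left 3. ESPL1, the separase that cleaves cohesin at anaphase, gave 12.1, 12.2 and 11.5 FPKM in pcCon and 16.9, 19.1 and 17.8 in pcYY2, with a log2 fold change of 0.60 (SE 0.0611, edgeR adjusted p = 0.00479), above that of any member. UBE2C, the ubiquitin-conjugating enzyme of APC/C, rose from 38.1 ± 2.20 to 53.2 ± 3.77 FPKM (0.50, adjusted p = 0.0136). FZR1, the CDH1 activator that takes over from CDC20, rose from 8.92 ± 0.198 to 11.5 ± 0.537 FPKM (0.38, adjusted p = 0.0133). ANAPC7, a scaffold subunit, rose from 6.78 ± 0.465 to 8.70 ± 0.551 FPKM (0.37, adjusted p = 0.0273).

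For the regulators of G2/M transcription, a list that pools activators and repressors, the calls were near the background. Of 16 genes, 15 were tested with edgeR, 0 were called and 3 had an unadjusted p under 0.05. The median log2 fold change was -0.07. Of all genes tested, 4.52% were called higher and 4.85% lower. Leaving out pcCon sample 3 left 1 called lower, and leaving out pcYY2 sample 3 left 1 called higher. Leaving out any other sample left 0 called. MYBL2 (B-MYB) gave 52.9 ± 3.79 and 60.5 ± 4.87 FPKM (log2 fold change 0.21, adjusted p = 0.137), and LIN54, the CHR-contacting subunit of MuvB, 2.66 ± 0.0618 and 3.10 ± 0.382 FPKM (0.23, adjusted p = 0.156). FOXM1, named after its values were seen, gave 14.7, 14.7 and 15.2 FPKM in pcCon and 18.5, 18.9 and 8.36 in pcYY2. Sample 3 thus lay below every pcCon sample and the other pcYY2 samples above them. All 10 mitotic genes were higher than pcCon in sample 3. This contrast rests on sample 3 alone, and a link between FOXM1 and the mitotic genes was not tested.

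Of the 12 genes that regulate G2 arrest, in either direction, 10 were tested (median log2 fold change 0.02), with 5 above 0 and 5 below. Leaving out pcYY2 sample 1 left 2 called higher, and leaving out any other sample left 1. With all samples 1 rose, where 4.52% of all genes tested were called higher. This was SFN, the 14-3-3 sigma protein that sequesters cyclin B1 and CDK1 in the cytoplasm, which rose from 112 ± 2.52 to 163 ± 13.7 FPKM (log2 fold change 0.55, SE 0.0703, edgeR adjusted p = 0.00869). The CDK inhibitor CDKN1A gave 14.7 ± 0.559 and 17.1 ± 1.18 FPKM (0.24, adjusted p = 0.0712). Among 7 paralogs of the members, 5 were tested. CCNF, which encodes an F-box protein of the cyclin family, rose from 13.6 ± 0.215 to 18.7 ± 0.339 FPKM (0.47, adjusted p = 0.00390), while PLK2, a Polo-like kinase of G1, fell from 6.96 ± 0.972 to 4.03 ± 0.226 FPKM (log2 fold change -0.78, adjusted p = 0.00991). The germline cyclin CCNA1 had 0 reads.

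For comparison with an earlier stage of the cycle, 17 S phase genes were all tested, of which 4 rose and 2 fell (median log2 fold change 0.12). Leaving out pcCon sample 1, 2 or 3 left 2 called higher in each case, and 0, 1 and 0 called lower. Without pcYY2 sample 1, 2 or 3 there were 4, 3 and 3 higher and 1 lower. Ribonucleotide reductase rose in both subunits, RRM2 from 33.5 ± 1.41 to 43.4 ± 1.44 FPKM (0.39, edgeR adjusted p = 0.00834) and RRM1 from 28.6 ± 0.543 to 34.3 ± 0.341 FPKM (0.28, adjusted p = 0.0116), and so did the helicase subunit MCM7 (0.29, adjusted p = 0.0127). The E-type cyclins of S phase entry were lower in pcYY2. CCNE1 gave 9.10, 8.73 and 9.05 FPKM in pcCon and 6.57, 6.83 and 6.70 in pcYY2 (log2 fold change -0.40, SE 0.0594, adjusted p = 0.0133), and CCNE2 gave 6.57, 7.13 and 6.05 in pcCon and 5.02, 4.18 and 5.15 in pcYY2 (-0.45, SE 0.102, adjusted p = 0.0414). Every pcYY2 sample lay below every pcCon sample for both. The call on CCNE1 was lost without pcCon sample 1 or 3 (edgeR adjusted p = 0.0530 and 0.0532) and with the replicate block (0.0676). That on CCNE2, which was named after its value was seen, was lost in each fit that left out a sample (adjusted p = 0.0647 to 0.123), at the filter of 0.1 FPKM (0.0549) and with the replicate block (0.110).

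**Figure D4:**
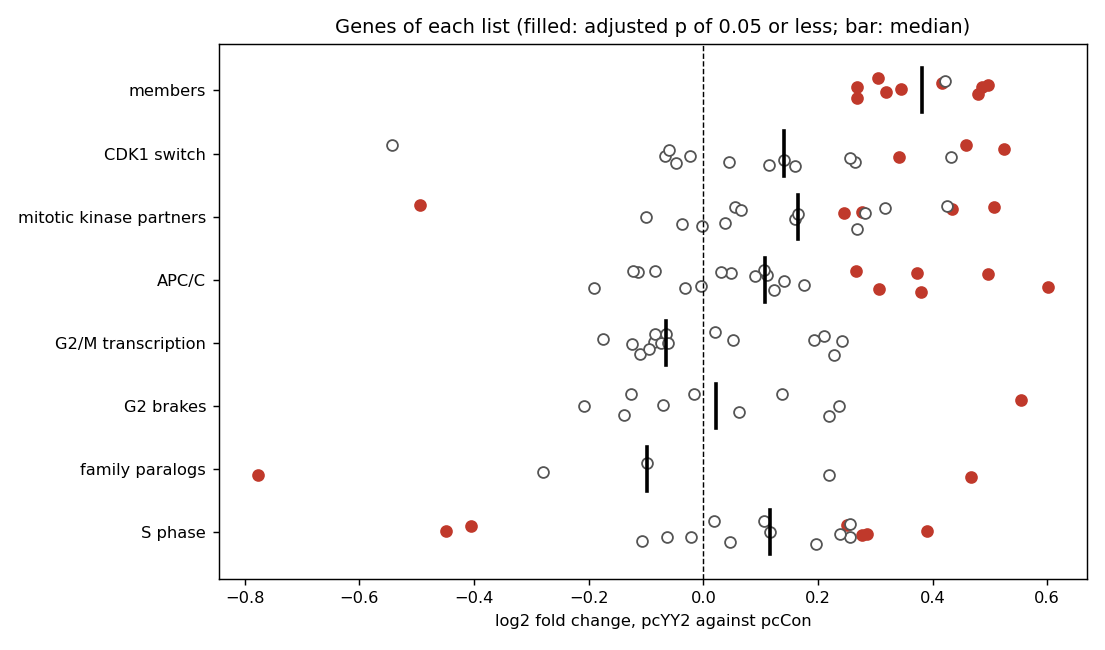
Log2 fold change (pcYY2 against pcCon) of every tested gene of the mitotic genes (members) and of 7 lists around them; filled points had an adjusted p of 0.05 or less and the bar is the median of the list. The mitotic genes had a median of 0.38, and the medians of the other lists ran from -0.10 for the paralogs to 0.17 for the kinase partners.

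Over the 6 samples, the profile of the members (the mean of their standardised log2 CPM, counts scaled to the TMM-adjusted library size) was compared with 11900 tested genes outside the lists by Pearson's r, as a description. The most similar were TROAP (r = 0.998), a gene of spindle assembly whose log2 fold change was 0.69, SECTM1 (0.997), CLDN4 (0.997), a tight junction gene with a log2 fold change of 5.14, LIX1L (0.996) and CEP250 (0.996), a centrosome gene with a log2 fold change of 0.29. An r above 0.95 was found for 335 genes, and the 6 points of this profile form the groups pcCon and pcYY2, and any gene that separates these groups has a high r. Within the members, r with the other members was 0.986 for BUB1 and for PLK1 and lowest for AURKB (0.893) and CDK1 (0.813).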

How the data were processed

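RNA-Seq covered 3 pcCon and 3 pcYY2 samples of HCT116. Reads were filtered by the authors and mapped to GRCh38 with TopHat, and the processing notes also name Bowtie2 and HTSeq. The table deposited by the authors holds whole-number counts per gene, without normalization, and FPKM, scaled to gene length and total count. Cuffdiff output was not used here. Counts were tested with edgeR 4.0.16 (R 4.3.3; TMM, quasi-likelihood F-test, group as the only term) on 12015 genes, those averaging 1 FPKM or more over the 6 samples, with Benjamini-Hochberg adjustment and calls at 0.05. Standard errors (SE) were derived from the fold change and its F statistic. A count of 3 (0.101 to 0.198 CPM) was taken as the floor and covers counting error only. Scripts were tested on simulated data. Members and lists were chosen with earlier results of these data known. In each list, the 4 called genes with the smallest p were named, or the 2 with the smallest p as values where fewer than 2 were called. Alternatives were the filter, the scaling, a replicate block, leaving out each sample, DESeq2 1.42.0 and limma 3.58.1 on log2(FPKM + 1) and log2(FPKM + 0.1). The sums with pseudogenes and the read-through gene, and a permutation test on TMM-scaled values, were added after seeing the data. Gene positions are those of the table, strands and overlaps those of GENCODE, and promoters those of RefSeq.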

Additional observations from a re-analysis of the deposited data

How the results depend on the processing

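The 9 members called higher were 9 at a filter of 0.1 FPKM, with upper quartile scaling and with library totals alone. They were also 9 with limma at either pseudocount, and 10 without a filter and with DESeq2. Of all genes, 494 of 18877 were called higher at the 0.1 FPKM filter and 489 of 27528 without a filter. Of the 12015 genes, 464 were called higher with upper quartile scaling, 480 with library totals alone and 713 with DESeq2. With limma it was 461 on log2(FPKM + 1) and 463 on log2(FPKM + 0.1). The replicate numbers did not pair the samples: deviations of same-numbered samples correlated at -0.0262, -0.0413 and -0.0259. With the replicate block, 2 members (CCNA2 and PLK1) were called, beside 3 pathway genes higher, 0 lower, and 51 higher and 50 lower of all genes, against 543 and 583 without it. Leaving out single samples gave 4 to 8 members higher, 6 to 13 pathway genes higher and 1 to 3 lower, 138 to 402 of all genes higher and 147 to 419 lower, with fewer samples in each fit. DESeq2 gave 18 pathway genes higher and 3 lower, beside 713 higher and 726 lower of all genes. No member was called lower in any of these fits, and no log2 fold change of a member or of a called list gene changed sign. The median log2 fold change of the members, 0.38, was 0.40 at a filter of 0.1 FPKM and 0.40 without a filter, 0.36 with upper quartile scaling, 0.37 with library totals alone, and with limma 0.35 on log2(FPKM + 1) and 0.36 on log2(FPKM + 0.1); leaving out single samples gave 0.35 to 0.39. The precision of the members rests on 3 samples a group and on 843 reads or more per member and sample. Whether sample spread or read depth limited it was not tested.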
